A study of Mus musculus with 9 samples.

Results

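The 10 genes described here are Nr3c1, which encodes the glucocorticoid receptor, Hsd11b2, which encodes an enzyme that inactivates glucocorticoids, and the glucocorticoid-induced genes Fkbp5, Zbtb16, Tsc22d3, Sgk1, Ddit4, Errfi1, Klf9 and Dusp1. They were 10 of the 21868 genes in a count table of mouse (Mus musculus) jejunum, matched by gene symbol, and all 10 passed the filter on low counts. They were selected on their own levels in these 9 libraries, as genes with a graded response over the 3 groups, so their levels and fold changes are given as a description and without a test. The label holds for some of them: Fkbp5, Zbtb16, Tsc22d3 and Ddit4 had every TPN library above every starvation library and every starvation library above every sham library, and the other 6 genes did not.

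RNA was sequenced in bulk from 3 groups of 3 libraries. In the TPN group, mice received TPN (total parenteral nutrition, in which all food is infused into the blood) for 24 h. In the starvation group they were starved for 24 h, and in the sham group they received a sham treatment for 24 h. A 5 cm piece of jejunum was taken and slit open, so each library can hold every layer and cell type of the gut wall. The sources used here do not give the strain, sex and age of the mice, or any surgery that the groups shared. Replicates are called biological in the labels, with no word on whether they were separate mice. If some were not, the p-values reflect the spread between samples that may be technical.

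Glucocorticoids (corticosterone in the mouse) are adrenal steroids whose blood level rises with fasting and other stress. The steroid enters the cell and binds its receptor, which is held in the cytoplasm by heat shock protein chaperones; the receptor then moves to the nucleus and binds DNA at glucocorticoid response elements. In the intestine glucocorticoids are known for maturing the epithelium, for raising sodium and nutrient absorption and for damping inflammation, and the epithelium can also make the steroid locally.

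Promoter sequence was searched for such elements because the members were selected for moving together. RefSeq windows of 250 bases before to 50 bases after a transcription start (GRCm38.p6) were found for 7 of the 10 genes, 15 windows in all, since several genes have more than 1 start. Nr3c1 and the other genes of its chromosome were left out of this search, so a missing window for Nr3c1 says nothing about its promoter. The element was searched on both strands as GNACANNNTGTNC, and it was present in 156 of the 32851 windows of all genes searched (0.475%). Among the members 1 of 15 windows held it. That window belongs to a start of Sgk1 at chr10:21993640-21993939 on the plus strand, and its element begins 188 bases before that start and 964 bases before the most downstream start of the gene. It is a full palindrome, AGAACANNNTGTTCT, which only 3 of the 32851 windows held (0.00913%). The shorter motif AGAACA, which the palindrome contains, was in 4 member windows, of Sgk1 and Tsc22d3, and in 19% of all windows. The Sgk1 window is shown with that of Fkbp5, a gene with 3 clearly separate group levels, and with that of Mt1, a metallothionein gene outside the 10 that is described further on. The Fkbp5 window lies at chr17:28486100-28486399 on the minus strand and the Mt1 window at chr8:94178839-94179138 on the plus strand, with its element 94 bases before the start. Capitals mark the element, the palindrome and the shorter motif on either strand, and each sequence runs 5′ to 3′ along its gene.
Sgk1: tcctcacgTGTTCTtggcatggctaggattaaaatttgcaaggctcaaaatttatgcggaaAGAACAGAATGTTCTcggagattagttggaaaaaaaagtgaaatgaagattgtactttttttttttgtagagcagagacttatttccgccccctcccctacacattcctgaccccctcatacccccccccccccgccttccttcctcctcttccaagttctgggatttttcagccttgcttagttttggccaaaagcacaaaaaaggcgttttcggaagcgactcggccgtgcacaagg
Fkbp5: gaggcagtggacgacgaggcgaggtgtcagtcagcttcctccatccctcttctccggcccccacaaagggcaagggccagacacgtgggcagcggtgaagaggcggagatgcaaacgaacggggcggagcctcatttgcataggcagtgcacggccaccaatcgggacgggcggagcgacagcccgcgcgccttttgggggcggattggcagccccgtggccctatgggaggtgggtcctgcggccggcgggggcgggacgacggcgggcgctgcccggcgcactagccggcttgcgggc
Mt1: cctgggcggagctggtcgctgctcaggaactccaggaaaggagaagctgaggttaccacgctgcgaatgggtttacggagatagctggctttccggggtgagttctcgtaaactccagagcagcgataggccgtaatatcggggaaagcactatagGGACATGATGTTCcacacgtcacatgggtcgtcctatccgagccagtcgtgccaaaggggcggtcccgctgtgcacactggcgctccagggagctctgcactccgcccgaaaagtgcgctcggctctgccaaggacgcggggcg
The Fkbp5 window has no capitals. A match in these windows is a description and not a binding site, and a window without one says only that these letters are not in it. In a list of 36 other genes known to be induced by glucocorticoids, 30 had windows, and 3 of them held the element: Mt1, Fam107a (GGACATGGTGTTC, in a start at chr14:8309730-8310029, minus strand) and Trim63 (GAACAGTCTGTTC, chr4:134314870-134315169, plus strand).

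Total counts ran from 7779877 in TPN replicate 2 to 12084278 in sham replicate 3, and 1 read gave between 0.0798 and 0.119 CPM. CPM is the count scaled to library size, here with TMM factors. Enterocyte markers were present in every library, but every TPN library was below all others. They summed to 6583 to 7358 CPM in TPN, 10120 to 22495 CPM in starvation and 14167 to 15706 CPM in sham. Sham replicate 2 and starvation replicate 3 stood apart from the rest of their groups in the makeup of the tissue. Summed smooth muscle markers were at 8855 CPM in sham replicate 2, against 1082 and 1164 CPM in sham replicates 1 and 3. Fibroblast markers were at 963 CPM there, against 365 and 380 CPM. Sham replicate 2 also had villus tip markers at 59756 CPM, against 25180 and 28542 CPM, and crypt and cycling markers at 680 CPM, against 1228 and 1150 CPM. In starvation replicate 3, villus tip markers summed to 76089 CPM and crypt and cycling markers to 209 CPM, against 14642 and 24370 CPM and 826 and 664 CPM in starvation replicates 1 and 2. TPN replicate 2 stood apart in pancreatic acinar markers, all 8 of which are in the table. They summed to 16543.5 CPM there, against 300.2 and 16.0 CPM in TPN replicates 1 and 3, 2138 CPM in starvation replicate 1, 3220 CPM in sham replicate 1 and 16.3 to 19.7 CPM in the other 4 libraries. For each gene list, the number of calls is also given without starvation replicate 3 and without both it and sham replicate 2. Without both, more of all genes were called higher and lower in every comparison too. A larger count in a list is therefore not read as a result about that list. The part that tissue makeup plays in any result below was not tested.

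The receptor gene was expressed at a similar level in the 3 groups. Nr3c1 had 223, 214 and 212 CPM in the TPN libraries, 197, 223 and 201 CPM in the starvation libraries and 251, 225 and 255 CPM in the sham libraries. The sham libraries lay just above both other groups without overlap, and TPN and starvation overlapped. The log2 fold change was -0.17 ± 0.14 (SE) in TPN against sham, -0.24 ± 0.14 in starvation against sham and 0.06 ± 0.14 in TPN against starvation. With library totals in place of TMM factors the TPN against sham value was 0.01, so the small distance between TPN and sham depended on the scaling. In bulk tissue, fewer cells of a type and less RNA per cell cannot be told apart, which holds for every gene below.

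Hsd11b2 encodes the enzyme that turns active corticosterone into an inactive form and so keeps it from mineralocorticoid receptors in sodium-absorbing epithelia. Its level was low, at 16.6, 13.1 and 14.5 CPM in TPN, 11.8, 9.82 and 2.43 CPM in starvation and 8.64, 4.16 and 8.91 CPM in sham. Every TPN library was above every starvation and every sham library, while starvation and sham overlapped. The lowest values were in the libraries that stood apart in tissue makeup, starvation replicate 3 and sham replicate 2. Its log2 fold change was 1.02 ± 0.50 in TPN against sham, 0.15 ± 0.50 in starvation against sham and 0.87 ± 0.49 in TPN against starvation. The gene lies on chromosome 8 at chr8:105518755-105523988 (GRCm38, plus strand).

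Among the induced genes, Fkbp5 and Zbtb16 differed most from sham. Fkbp5 encodes FKBP51, a co-chaperone that the receptor induces and that in turn lowers the receptor's affinity for its hormone. Fkbp5 had 421, 433 and 389.6 CPM in TPN, 166, 162 and 226 CPM in starvation and 19.3, 12.3 and 15.0 CPM in sham. The groups formed 3 separate levels with wide gaps, and starvation replicate 3 was the highest of its group. The means were 414 ± 22.4 CPM in TPN, 185 ± 35.7 CPM in starvation and 15.5 ± 3.56 CPM in sham (SD, n = 3 each). These are a 26.7-fold difference between TPN and sham, an 11.9-fold difference between starvation and sham and a 2.25-fold difference between TPN and starvation. On the log2 scale they were 4.74 ± 0.24, 3.57 ± 0.23 and 1.17 ± 0.20 (SE). The gene spans chr17:28399094-28517527 on the minus strand (GRCm38). It overlaps the noncoding genes AC154912.1 and Gm22146 on the other strand, and with no strand setting given, reads of the 3 cannot be told apart.

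Zbtb16 encodes PLZF, a zinc finger transcription factor that glucocorticoids induce in many tissues and that is also made by innate-like lymphocytes. It had 65.3, 73.3 and 58.5 CPM in TPN, 16.0, 15.8 and 34.0 CPM in starvation and 1.08, 2.88 and 1.75 CPM in sham. The groups did not overlap, sham was very low, and starvation replicate 3 was the highest of its group. On the log2 scale the difference was 5.11 ± 0.42 in TPN against sham, 3.53 ± 0.40 in starvation against sham and 1.58 ± 0.34 in TPN against starvation. Markers of T and innate lymphocytes, 6 of 8 of which are in the table, summed to 119 to 151 CPM in TPN, 105 to 205 CPM in starvation and 114 to 225 CPM in sham, so their ranges overlapped in the 3 groups. Zbtb16 lies at chr9:48654297-48836222 on the minus strand.

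**Figure D1:**
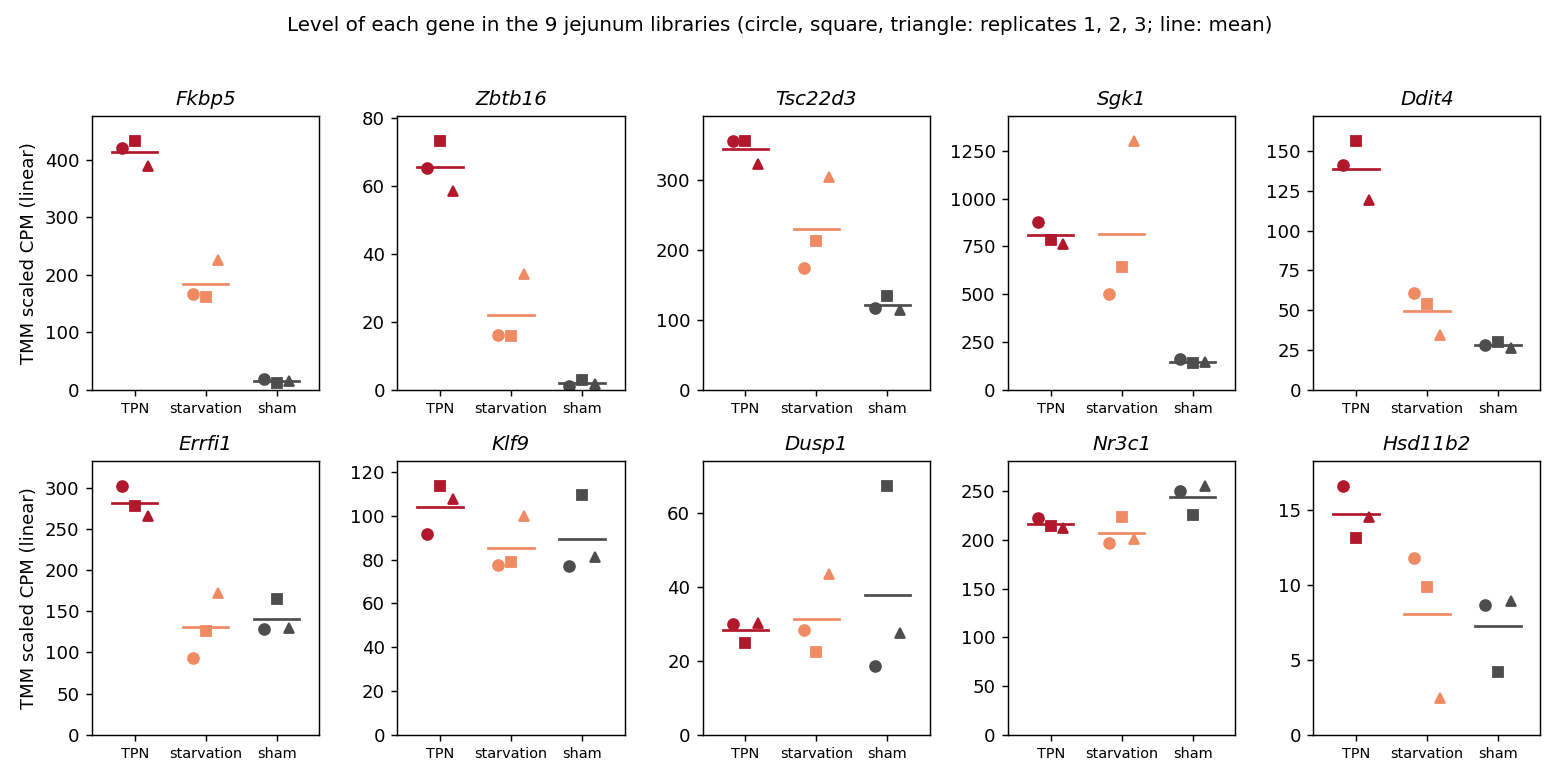
TMM scaled CPM (linear axis from 0) of the 10 genes in the 9 libraries, with TPN left, starvation in the middle and sham right; circles, squares and triangles are replicates 1, 2 and 3 and lines are group means. Fkbp5, Zbtb16, Tsc22d3 and Ddit4 form 3 levels without overlap, Sgk1 has a starvation library at 1301 CPM above the TPN libraries, and Nr3c1 stays between 197 and 255 CPM.

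Tsc22d3 encodes GILZ, a leucine zipper protein that mediates part of the anti-inflammatory action of glucocorticoids. Its levels were 356, 355 and 323 CPM in TPN, 173, 212 and 305 CPM in starvation and 117, 133 and 115 CPM in sham. The groups did not overlap, but starvation replicate 3 came close to the lowest TPN library. Tsc22d3 had log2 fold changes of 1.50 ± 0.21 in TPN against sham, 0.92 ± 0.21 in starvation against sham and 0.58 ± 0.21 in TPN against starvation. Without starvation replicate 3 the starvation against sham value was 0.64. Tsc22d3 lies at chrX:140539528-140600659 on the minus strand.

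Sgk1 encodes a kinase that stimulates sodium absorption, among others by acting on sodium channels and exchangers. It was the member with the most RNA in TPN, at 877, 784 and 761 CPM, against 499.6, 642 and 1301 CPM in starvation and 158, 139 and 142 CPM in sham. Both TPN and starvation were well above sham, and the starvation libraries lay on both sides of the TPN libraries. The log2 fold change was 2.46 ± 0.33 in TPN against sham, 2.47 ± 0.33 in starvation against sham and -0.01 ± 0.31 in TPN against starvation. The nearly equal means of TPN and starvation rested on starvation replicate 3. Without it the TPN against starvation value was 0.55 and the starvation against sham value 1.94. The gene lies at chr10:21882184-21999903 on the plus strand and holds the promoter window with the palindrome printed above.

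Ddit4 encodes REDD1, an inhibitor of the growth-promoting kinase complex mTORC1 that is induced by glucocorticoids, by fasting and by low oxygen. It had 141, 156 and 119.6 CPM in TPN, 60.6, 53.7 and 34.1 CPM in starvation and 28.1, 30.1 and 26.2 CPM in sham. TPN stood far above both other groups, and the lowest starvation library lay only just above sham. In contrast to the other graded genes, starvation replicate 3 was the lowest of its group. For Ddit4 the log2 fold changes were 2.31 ± 0.21 in TPN against sham, 0.82 ± 0.21 in starvation against sham and 1.49 ± 0.21 in TPN against starvation. Ddit4 lies at chr10:59949669-59951834 on the minus strand.

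Errfi1 encodes MIG6, a feedback inhibitor of the EGF receptor. It had 302, 278 and 266 CPM in TPN, 93.8, 126 and 172 CPM in starvation and 129, 164 and 129.9 CPM in sham. Every TPN library was above all others, and starvation and sham overlapped, so the order over the groups was not graded. The log2 fold change was 1.00 ± 0.22 in TPN against sham, -0.11 ± 0.22 in starvation against sham and 1.11 ± 0.22 in TPN against starvation. The gene lies at chr4:150853919-150868892 on the plus strand, where a noncoding gene on the other strand, 1700045H11Rik, overlaps it. Since no strand setting is given, reads of the 2 cannot be told apart.

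Klf9 encodes a transcription factor of the Krüppel-like family that is a direct receptor target in brain and skin cells. It had 91.6, 113 and 108 CPM in TPN, 77.7, 78.8 and 99.9 CPM in starvation and 77.2, 109 and 81.2 CPM in sham. All 3 groups overlapped. Klf9 had log2 fold changes of 0.22 ± 0.18 in TPN against sham, -0.06 ± 0.18 in starvation against sham and 0.29 ± 0.18 in TPN against starvation. The gene lies at chr19:23141226-23168134 on the plus strand.

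Dusp1 encodes a phosphatase that switches off the MAP kinases p38 and JNK and is a known route of glucocorticoid action on inflammation. It had 29.9, 24.7 and 30.1 CPM in TPN, 28.2, 22.4 and 43.5 CPM in starvation and 18.5, 67.1 and 27.5 CPM in sham. The highest value was in sham replicate 2 and the lowest in sham replicate 1, and all groups lay within that range. The log2 fold change was -0.41 ± 0.43 in TPN against sham, -0.26 ± 0.43 in starvation against sham and -0.15 ± 0.43 in TPN against starvation. Without sham replicate 2, which stood apart in smooth muscle and other markers, the sign turned, to 0.30 in TPN against sham and 0.44 in starvation against sham. The annotated gene, chr17:26505590-26562128 on the minus strand, overlaps Ergic1 on the other strand, so its counts are uncertain.

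The 10 genes can be set beside all genes by the edgeR quasi-likelihood test, with a Benjamini-Hochberg adjusted p under 0.05 over the 14668 genes tested. In TPN against sham, 6 of the 10 were called higher (Fkbp5, Zbtb16, Tsc22d3, Sgk1, Ddit4 and Errfi1) and 0 lower, where 3.48% of all genes were called higher and 5.12% lower. In starvation against sham, 4 were called higher (Fkbp5, Zbtb16, Tsc22d3 and Sgk1) and 0 lower, against 2.55% and 1.14% of all genes. In TPN against starvation, 4 were called higher (Fkbp5, Zbtb16, Ddit4 and Errfi1) and 0 lower, against 1.94% and 3.9%. The graded order in every library held for 4 of the 10 and for 126 of the 14668 genes (0.859%). Nothing is read from these counts, because the same comparisons selected the genes. Of all genes called in TPN against sham, 59.6% were lower, and this share was 48.6% with upper quartile factors and 46.8% with library totals. The median log2 fold change of the 10 was 1.26 in TPN against sham, 0.48 in starvation against sham and 0.73 in TPN against starvation, and that of all genes was -0.02, -0.01 and -0.03. TPN and starvation were compared with the same sham libraries.

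**Figure D2:**
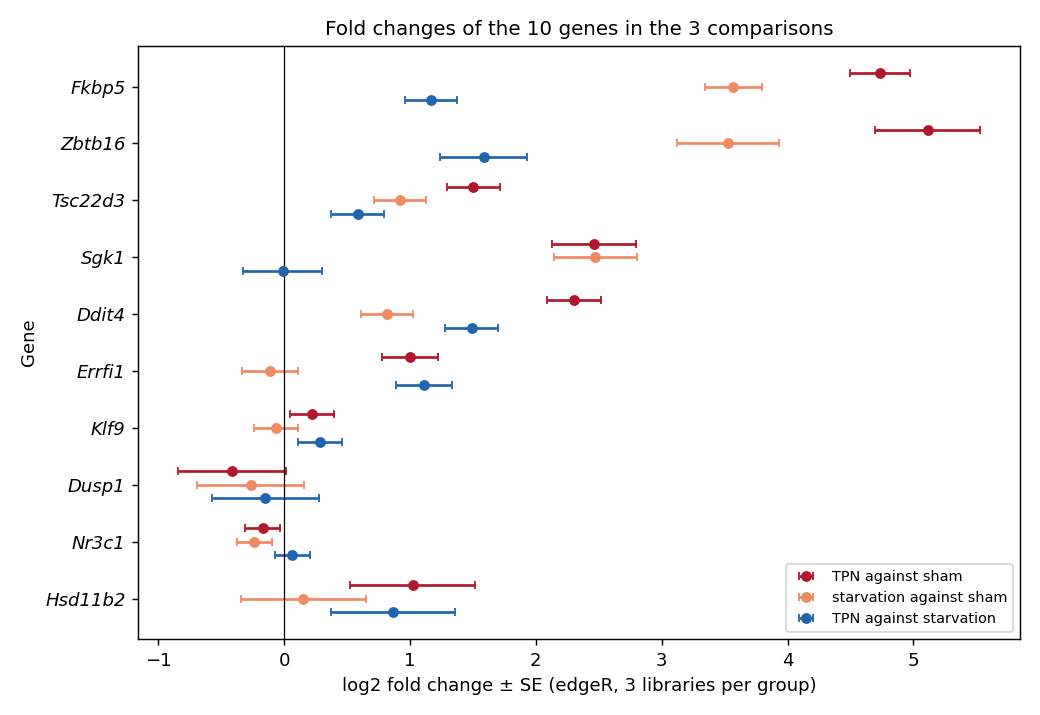
Log2 fold change ± SE (edgeR, 3 libraries per group) of the 10 genes in TPN against sham, starvation against sham and TPN against starvation, with a line at 0. Fkbp5 and Zbtb16 lie farthest right, at 4.74 and 5.11 in TPN against sham, Sgk1 has nearly the same value in both comparisons against sham, and Klf9, Dusp1 and Nr3c1 lie near 0.

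Some calls were lost or gained when 1 library was left out, and the values in those fits are given in brackets. Leaving out 1 library also moved the calls over all genes. Those higher in TPN against sham ran from 83 to 1477 (510 with all libraries). Those higher in TPN against starvation ran from 43 to 482 (285). A lost call is therefore not read as dependence of a value on that library. In TPN against sham, Errfi1 was not called without any 1 of the TPN libraries, sham replicates 1 or 3 or starvation replicate 2 (0.94 to 1.04), and Hsd11b2 was called without starvation replicate 3 (1.05). In starvation against sham, Tsc22d3 was not called without any 1 of the sham or TPN libraries or starvation replicate 2 (0.88 to 0.99), and Sgk1 was not called without sham replicate 3 (2.45). In the same comparison Ddit4 was called without starvation replicate 3 (1.00). In TPN against starvation, Fkbp5 and Errfi1 were not called without any 1 TPN library or starvation replicate 2 (1.08 to 1.21 and 1.06 to 1.15), while Ddit4 was called in all 9 fits that left out 1 library. Zbtb16 was not called there without any 1 TPN library, sham replicate 3 or starvation replicates 1 or 2 (1.40 to 1.66), and Tsc22d3 was called without starvation replicate 3 (0.89). Of the 14 calls of the 10 genes, 8 held in all 9 fits that left out 1 library. With sham replicate 2 and starvation replicate 3 both left out, 8 of the 10 genes were called in TPN against sham, 5 in starvation against sham and 7 in TPN against starvation, all higher. That fit also called more of all genes, higher and lower, in every comparison. Its larger counts are therefore not read as a result about the 10 genes. Without TPN replicate 2, the library with the acinar markers, 5, 3 and 1 of the 10 genes were called in the 3 comparisons, as many as without either other TPN library. Fits of only the groups compared called 1 of the 10 in starvation against sham (Fkbp5, where all 3 groups gave 4) and 3 in TPN against starvation (Errfi1 was lost). Tsc22d3 in starvation against sham was also lost with RLE factors and with no filter, Ddit4 was called there by DESeq2, and Tsc22d3 was called in TPN against starvation with library totals.

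Levels can be roughly compared between genes after division by exon length, here the union of the exons of all annotated transcripts. Which transcripts were expressed was not tested, so orders that rest on small differences are uncertain. In TPN the order was Sgk1 at 165 CPM per kb, then Tsc22d3, Ddit4 and Errfi1 at 79.4, 79.3 and 78.7 CPM per kb, which did not differ beyond their spread. Fkbp5 followed at 43.8 CPM per kb, Nr3c1 at 28.2, Klf9 at 21.6, Zbtb16 at 12.4, Dusp1 at 8.53 and Hsd11b2 at 8.0 CPM per kb, the last pair again within their spread. In starvation Sgk1 again had the highest level, at 166 CPM per kb, Fkbp5 stood at 19.5 and the lowest were Hsd11b2 at 4.36 and Zbtb16 at 4.16 CPM per kb, within their spread. In sham the highest were Errfi1 at 39.4, Nr3c1 at 31.7, Sgk1 at 29.9 and Tsc22d3 at 28 CPM per kb, with the last 3 within their spread, and the lowest were Fkbp5 at 1.64 and Zbtb16 at 0.360 CPM per kb. By this measure Fkbp5 RNA stood above that of the receptor gene Nr3c1 in TPN and below it in sham. In starvation it was also below, at 19.5 against 26.9 CPM per kb, an order that depends on the lengths used.

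The 10 genes also differed in how far replicates spread. In TPN the SD of log2 CPM ran from 0.04 (Nr3c1) to 0.19 (Ddit4). In starvation it was 0.10 for Nr3c1, 0.27 for Fkbp5, 0.72 for Sgk1 and 1.13 for Hsd11b2. In sham it was 0.94 for Dusp1 and 0.10 for Sgk1 and Ddit4. The wide spread in starvation came with replicate 3, which was the highest starvation library for Fkbp5, Zbtb16, Tsc22d3, Sgk1, Errfi1, Klf9 and Dusp1 and the lowest for Ddit4 and Hsd11b2.

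Other genes that glucocorticoids induce, in a list of 36 that holds none of the 10, rose in part in both TPN and starvation. Of 35 tested, 11 rose and 0 fell in TPN against sham, with a median log2 fold change of 0.56. In starvation against sham 11 rose and 0 fell, with a median of 0.44, and in TPN against starvation 3 rose and 0 fell, with a median of 0.29. Over all genes, 3.48%, 2.55% and 1.94% were called higher and 5.12%, 1.14% and 3.9% lower in the 3 comparisons. At an unadjusted p under 0.05, edgeR had 17 genes higher and 1 lower in TPN against sham, 15 and 1 in starvation against sham and 10 and 5 in TPN against starvation, and DESeq2 at its adjusted p called 15 and 1, 12 and 1, and 7 and 3. In TPN against sham 11 higher and 0 lower became 17 and 1 without starvation replicate 3, and in starvation against sham 12 and 1. Leaving out sham replicate 2 as well gave 21 and 1, 14 and 2, and 13 and 2 in the 3 comparisons. Calls over all genes rose in that fit too. The starvation count was 3 without sham replicate 3 or starvation replicate 2, 4 without sham replicate 1, 5 without TPN replicate 1 and 6 without sham replicate 2 or TPN replicates 2 or 3. It was 1 in a fit of only starvation and sham, which called very few of all genes. With the replicate number as a block it was 5. In TPN against starvation 3 became 1 without any 1 TPN library, and 7 without sham replicate 2 or starvation replicate 3. The list is not independent evidence, since it was written with earlier results of these data known.

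The metallothioneins, small zinc-binding proteins that glucocorticoids and zinc induce, were among the genes of this list that rose in both TPN and starvation. Mt2 had 124, 134 and 127 CPM in TPN, 162, 197 and 357 CPM in starvation and 7.95, 2.67 and 4.75 CPM in sham, so that both groups were far above sham. It rose in TPN (4.64 ± 0.43, edgeR adjusted p = 8.1e-04) and in starvation (5.54 ± 0.44, adjusted p = 0.0022). Unlike Fkbp5 and Zbtb16, its starvation libraries were all above its TPN libraries, and the difference between TPN and starvation did not pass (-0.89 ± 0.36, adjusted p = 0.17). Mt1, whose promoter window is printed above, had 140.0, 215 and 157 CPM in TPN, 249, 230.1 and 596 CPM in starvation and 20.9, 17.0 and 22.0 CPM in sham. It rose by 3.10 ± 0.38 in TPN and by 4.17 ± 0.40 in starvation (adjusted p = 0.0029 and 0.0058). In a fit of only starvation and sham, the starvation value of Mt1 was not called (4.17, edgeR adjusted p = 0.051).

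Angptl4, a secreted inhibitor of lipoprotein lipase, had 118, 115 and 97.3 CPM in TPN, 45.6, 62.6 and 98.5 CPM in starvation and 9.82, 7.47 and 11.7 CPM in sham. It rose by 3.50 ± 0.30 in TPN and by 2.82 ± 0.29 in starvation against sham (adjusted p = 4.6e-04 and 0.0058). Its starvation replicate 3 reached the TPN range, as that of Tsc22d3 nearly did. Pdk4, a kinase that restrains the burning of glucose, rose by 2.71 ± 0.33 in TPN and 2.09 ± 0.32 in starvation (adjusted p = 0.0028 and 0.015), and the starvation value was not called without sham replicates 1 (2.03) or 3 (2.10) or without starvation replicate 2 (2.20). Bcl6, a transcriptional repressor, rose by 1.82 ± 0.18 and 1.27 ± 0.18 (adjusted p = 0.0011 and 0.011), and the starvation value was not called when sham replicate 3 (1.15) or starvation replicate 2 (1.20) was left out. A fit of only starvation and sham did not call Angptl4, Pdk4 or Bcl6 (edgeR adjusted p = 0.063, 0.0998 and 0.0998).

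The 3 genes of the list that rose in TPN against starvation were Cebpd, Hif3a and Lcn2. Cebpd, a transcription factor of acute responses, had 109.5, 107 and 122 CPM in TPN, 44.9, 39.7 and 43.4 CPM in starvation and 24.3, 39.0 and 24.8 CPM in sham. It rose by 1.94 ± 0.19 in TPN against sham and by 1.41 ± 0.19 in TPN against starvation (edgeR adjusted p = 0.0011 and 0.0053), and its value in starvation against sham was 0.54 ± 0.19 (adjusted p = 0.13). Hif3a, a member of the hypoxia-inducible factor family, had 8.90, 15.6 and 8.41 CPM in TPN, 4.23, 2.64 and 1.16 CPM in starvation and 0.491, 0.533 and 0.417 CPM in sham. It rose by 4.48 ± 0.54 in TPN against sham. Its other calls were lost in most fits that left out 1 library, in which the values were 1.97 to 2.56 in starvation against sham and 1.68 to 2.17 in TPN against starvation. Lcn2, an antibacterial iron-binding protein, had 4.86, 5.13 and 6.09 CPM in TPN, 0.0798, 0.317 and 0 CPM in starvation and 0.294, 1.71 and 0.167 CPM in sham. Its starvation level rests on 4 reads, and its call was lost without any 1 TPN library (5.13 to 5.29).

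Per1, a clock gene with a receptor-bound promoter in mice, had 64.1, 75.5 and 58.6 CPM in TPN, 55.8, 70.8 and 99.97 CPM in starvation and 29.1, 34.5 and 34.99 CPM in sham. TPN and starvation overlapped and both were above sham. It rose by 1.01 ± 0.21 in TPN and 1.20 ± 0.21 in starvation (adjusted p = 0.023 and 0.025). The TPN call was lost without sham replicates 1 or 3 or any 1 TPN library (0.90 to 1.09), and the starvation call without any 1 sham or TPN library or starvation replicate 2 (1.12 to 1.25). The starvation value was not called in a fit of only starvation and sham either (1.21, edgeR adjusted p = 0.11). Nfkbia, which encodes an inhibitor of NF-κB, had 57.9, 58.6 and 58.6 CPM in TPN, 31.1, 37.9 and 58.9 CPM in starvation and 34.3, 44.9 and 39.5 CPM in sham. Its TPN libraries were all above sham, with a log2 fold change of 0.56 ± 0.22 that did not pass (adjusted p = 0.14). The 3 other genes that rose in TPN were Tnfaip3, Fam107a and Foxo1, and the 4 others that rose in starvation were Pck1, Klf15, Tnfaip3 and Mertk; these 6 genes fall outside the rule for named genes and were chosen after their values were seen.

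**Figure D3:**
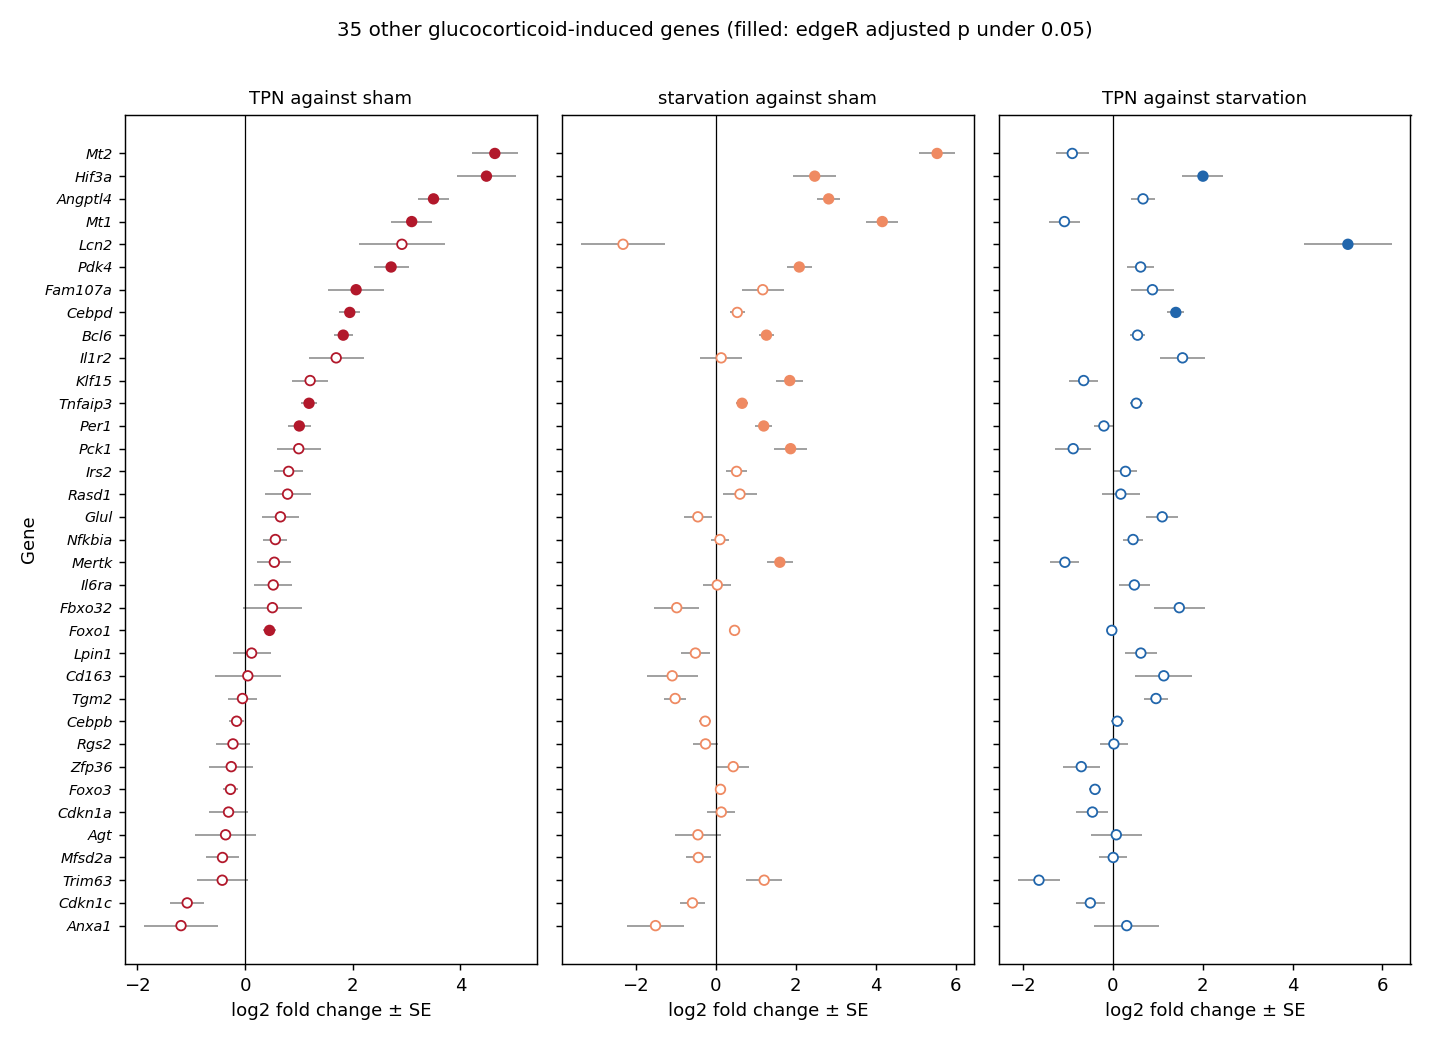
Log2 fold change ± SE (edgeR, 3 libraries per group) of the 35 tested genes of the list of other glucocorticoid-induced genes, ordered by TPN against sham; filled points have an adjusted p under 0.05. Of the 35 genes 11 points are filled in TPN against sham, 11 in starvation against sham and 3 in TPN against starvation, all of them right of 0.

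The chaperone genes of the receptor rose in part in TPN against starvation. Of 15 tested genes of the receptor complex, which holds Hsp90 and Hsp70 proteins, co-chaperones and the mineralocorticoid receptor Nr3c2, 7 rose and 1 fell in TPN against starvation, with a median log2 fold change of 0.57. In TPN against sham 1 rose (Hspa8) and 1 fell (Dnaja1), and in starvation against sham 0 rose and 2 fell (Hspa4 and Fkbp4), with medians of 0.07 and -0.31. Among all genes, 1.94% were called higher and 3.9% lower in TPN against starvation. These shares were 3.48% and 5.12% in TPN against sham and 2.55% and 1.14% in starvation against sham. The 7 genes that rose in TPN against starvation became 1 without any 1 TPN library. Without starvation replicate 3, 3 rose and 3 fell in TPN against sham, 0 rose and 3 fell in starvation against sham and 7 rose and 1 fell in TPN against starvation. After sham replicate 2 was left out as well, these were 3 and 3, 0 and 5, and 8 and 1. In starvation against sham 0 genes were higher at an unadjusted p under 0.05 and 6 were lower, and DESeq2 called 0 higher and 5 lower. The Hspa8 call against sham was lost without sham replicates 1 or 3 or any 1 TPN library (0.87 to 0.92), that of Dnaja1 without any 1 library other than starvation replicate 3 (-0.62 to -0.53) and that of Hspa4 without sham replicate 3 (-0.73) or starvation replicate 2 (-0.78).

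Hsp90ab1 and Hsp90aa1, the Hsp90 proteins that hold the receptor ready for hormone, showed this pattern. Hsp90ab1 had 1440.2, 1750.1 and 1714 CPM in TPN, 724, 593 and 279 CPM in starvation and 783, 778 and 827 CPM in sham. Starvation replicate 3 was the lowest library by a wide margin. It rose by 1.62 ± 0.31 in TPN against starvation (edgeR adjusted p = 0.018), and its 1.04 ± 0.31 in TPN against sham did not pass (adjusted p = 0.066). Hsp90aa1 had 377, 345 and 394 CPM in TPN, 170.3, 173 and 89.9 CPM in starvation and 275, 226 and 268 CPM in sham, and rose by 1.36 ± 0.25 in TPN against starvation (adjusted p = 0.015). The 3 groups of Hsp90aa1 did not overlap, with sham between TPN and starvation. Without any 1 TPN library these calls were lost, at 1.57 to 1.70 for Hsp90ab1 and 1.32 to 1.42 for Hsp90aa1, and that of Hsp90ab1 also without starvation replicate 2 (1.71).

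Fkbp4 encodes FKBP52, the co-chaperone that competes with FKBP51 for the receptor complex and favours hormone binding. It had 129.9, 137 and 136 CPM in TPN, 67.0, 70.6 and 39.7 CPM in starvation and 131, 91.2 and 133 CPM in sham. TPN and sham overlapped, and every starvation library was below both. Fkbp4 rose by 1.18 ± 0.23 in TPN against starvation (adjusted p = 0.02) and fell in starvation against sham (-1.001 ± 0.23, adjusted p = 0.047). The first call was lost without any 1 TPN library (1.17 to 1.21), and the second without sham replicates 1 or 3, any 1 TPN library or starvation replicates 1 or 2 (-1.15 to -0.90). Fkbp5 and Fkbp4 RNA stood in different orders over the groups, with Fkbp5 in starvation far above sham and Fkbp4 below it.

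Hspa8 and Hspa4 encode proteins of the wider Hsp70 family, and that of Hspa8 helps to load the receptor onto Hsp90. Hspa8 had 2882, 2924 and 2844 CPM in TPN, 1284, 1444 and 1061 CPM in starvation and 1642, 1407 and 1665 CPM in sham, and rose by 1.19 ± 0.19 in TPN against starvation (edgeR adjusted p = 0.0096). Hspa4 had 96.7, 95.6 and 104 CPM in TPN, 58.4, 51.8 and 51.5 CPM in starvation and 93.2, 86.4 and 103 CPM in sham, and rose by 0.87 ± 0.12 (adjusted p = 0.0066). The Hspa4 value held its call in all fits that left out 1 library, while the Hspa8 call was lost without any 1 TPN library (1.18 to 1.20). Nr3c2, the mineralocorticoid receptor, went the other way, with 56.6, 43.2 and 43.5 CPM in TPN, 82.2, 113 and 141 CPM in starvation and 93.9, 66.4 and 81.2 CPM in sham. It fell in TPN against starvation (-1.23 ± 0.22, adjusted p = 0.015), a call lost without TPN replicates 2 or 3 (-1.16 each).

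**Figure D4:**
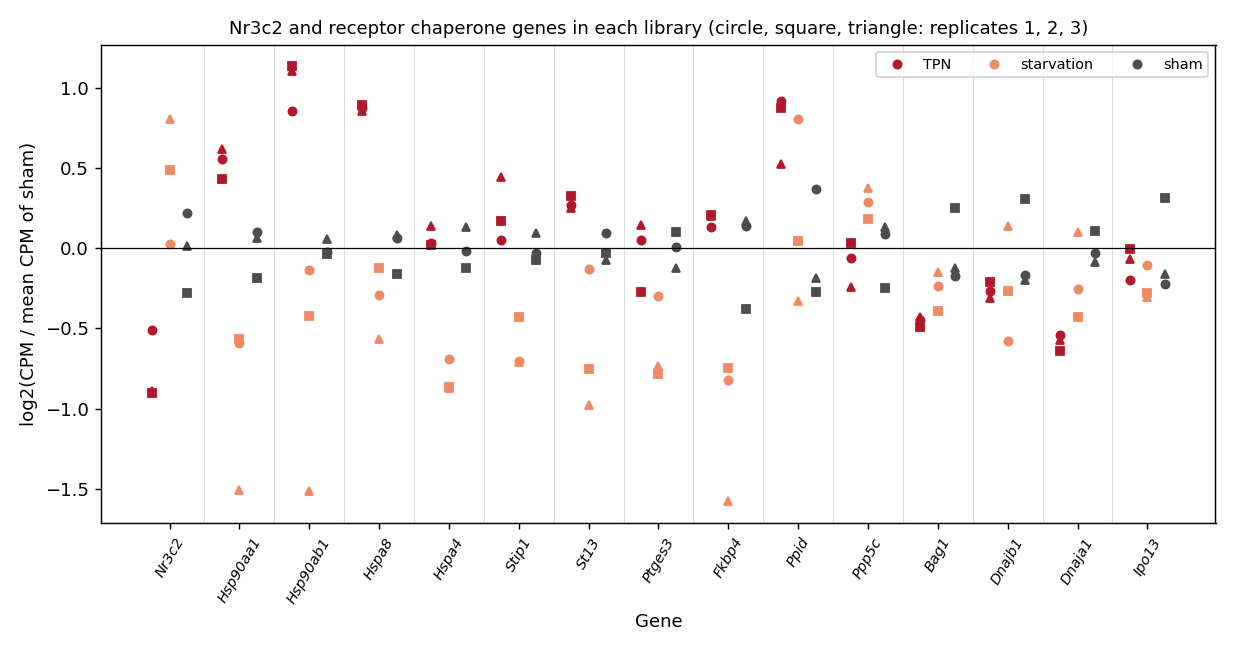
Log2 ratio of each library's CPM to the mean CPM of sham for the 15 genes of the receptor complex, with TPN left, starvation in the middle and sham right for each gene; circles, squares and triangles are replicates 1, 2 and 3. For Hsp90aa1, Hsp90ab1, Hspa8, Hspa4, Stip1, St13 and Fkbp4 all TPN points lie above all starvation points, and for Nr3c2 all lie below.

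Genes of the enzymes that make corticosterone had few reads. Cyp11a1, which makes the first step of steroid synthesis, averaged 0.512 CPM in TPN, 0.841 CPM in starvation and 0.481 CPM in sham, and Cyp11b1, which makes corticosterone, 0.218, 0.246 and 0.0555 CPM; neither passed the filter on low counts. Star, which carries cholesterol into mitochondria for steroid synthesis, was chosen after its values were seen. It had 11.8, 6.08 and 10.3 CPM in TPN, 12.05, 10.6 and 9.83 CPM in starvation and 4.61, 10.6 and 3.58 CPM in sham, so its groups overlapped. The overlap with sham came only through sham replicate 2, which stood apart in tissue makeup. Of the list of 19 genes of steroid synthesis and turnover 11 were tested. In TPN against sham 0 rose and 1 fell (Abcb1a), in starvation against sham 1 rose (Srd5a2) and 0 fell, and in TPN against starvation 0 rose and 2 fell (Abcb1a and Cyp3a11, of which Cyp3a11 had -1.98 with all libraries and -1.21 without starvation replicate 3). The shares of all genes called higher were 3.48%, 2.55% and 1.94% in the 3 comparisons, and those called lower 5.12%, 1.14% and 3.9%. At an unadjusted p under 0.05, edgeR had 3 higher and 1 lower in TPN against sham and 3 and 0 in starvation against sham. In TPN against starvation it had 1 and 2. DESeq2 at its adjusted p called 2 and 1, 2 and 0, and 1 and 2 in the 3 comparisons. When starvation replicate 3 was left out, 2 rose and 1 fell in TPN against sham, 2 rose and 0 fell in starvation against sham and 0 rose and 2 fell in TPN against starvation. With sham replicate 2 left out as well, these were 5 and 1, 4 and 0, and 2 and 2. Nr5a2, a nuclear receptor that drives steroid synthesis in the mouse intestine, had 45.8, 53.6 and 40.5 CPM in TPN, 35.3, 32.4 and 6.83 CPM in starvation and 32.4, 13.9 and 33.6 CPM in sham. Its lowest values were in starvation replicate 3 and sham replicate 2, as for Hsd11b2, and the 0.81 ± 0.52 in TPN against sham did not pass (edgeR adjusted p = 0.35).

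Hsd11b1, the enzyme that regenerates active corticosterone and so opposes Hsd11b2, had 7.005, 7.03 and 6.73 CPM in TPN, 4.55, 5.59 and 1.39 CPM in starvation and 2.94, 2.35 and 2.00 CPM in sham. All TPN libraries were above all others, as for Hsd11b2, and the value of 1.51 ± 0.45 in TPN against sham did not pass (adjusted p = 0.069). H6pd, which supplies Hsd11b1 with its cofactor, had a log2 fold change of 0.45 ± 0.18 (adjusted p = 0.15). Abcb1a, an efflux pump that carries glucocorticoids out of cells, had 65.0, 70.7 and 60.7 CPM in TPN, 121, 173 and 243 CPM in starvation and 133, 163 and 169.5 CPM in sham. It fell in TPN against sham (-1.25 ± 0.24, adjusted p = 0.016) and against starvation (-1.45 ± 0.24, adjusted p = 0.011). Both calls were lost without any 1 TPN library (-1.30 to -1.19 and -1.51 to -1.40), and the first also without sham replicate 3 (-1.18).

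A few genes of sodium and solute uptake, a list that holds targets of Sgk1, were called lower in TPN. Of 16 tested genes 0 rose and 2 fell in TPN against sham, 0 rose and 0 fell in starvation against sham and 0 rose and 4 fell in TPN against starvation, with medians of -0.31, 0.18 and -0.40. Of all genes tested, 5.12% were called lower in TPN against sham, 1.14% in starvation against sham and 3.9% in TPN against starvation. The shares called higher were 3.48%, 2.55% and 1.94%. The 4 genes that fell in TPN against starvation were Slc9a3r1, Slc6a19, Slc15a1 and Atp1b1. The 2 in TPN against sham were Slc9a3r1 and Slc9a2, and were lost without any 1 TPN library (-1.81 to -1.70 and -1.73 to -1.61), Slc9a2 also without sham replicate 3 (-1.67). The 4 calls against starvation were lost without any 1 TPN library, with values of -1.90 to -1.79 for Slc9a3r1, -2.36 to -2.27 for Slc6a19, -2.19 to -1.98 for Slc15a1 and -0.99 to -0.92 for Atp1b1, and that of Atp1b1 also without sham replicates 1 or 3 (-0.95 each) or starvation replicate 2 (-1.01). By unadjusted p under 0.05, edgeR had 0 genes higher and 5 lower in TPN against sham, 3 and 0 in starvation against sham and 0 and 7 in TPN against starvation, and DESeq2 at its adjusted p called 0 and 4, 1 and 0, and 0 and 5. Without starvation replicate 3, 0 rose and 6 fell in TPN against sham, 0 rose and 1 fell in starvation against sham and 0 rose and 5 fell in TPN against starvation. The medians were then -0.28, -0.04 and -0.20, so that of starvation against sham turned its sign. When sham replicate 2 too was left out, 1 rose and 10 fell, 2 rose and 3 fell, and 0 rose and 5 fell. Scnn1a, the alpha subunit of the sodium channel that Sgk1 stimulates, had 10.7, 10.97 and 10.8 CPM in TPN, 12.3, 13.9 and 13.7 CPM in starvation and 13.1, 15.3 and 11.1 CPM in sham. Slc9a3, the apical sodium-proton exchanger, had log2 fold changes of -0.27 ± 0.22 in TPN against sham and -0.25 ± 0.22 in starvation against sham (edgeR adjusted p = 0.46 and 0.51). Enterocyte markers summed to 6583 to 7358 CPM in TPN, 10120 to 22495 CPM in starvation and 14167 to 15706 CPM in sham, and the part of that difference in these values was not tested.

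Of 12 tested inflammatory genes that glucocorticoids are known to repress, 4 rose and 0 fell in TPN against sham (Il1b, Cxcl1, Icam1 and Ccl2). In starvation against sham 0 rose and 2 fell (Ptgs2 and Mmp9), and in TPN against starvation 4 rose and 0 fell (Il1b, Ccl2, Mmp9 and Cxcl1), with medians of 0.60, -0.47 and 1.19. Over all genes, the shares called higher in these comparisons were 3.48%, 2.55% and 1.94%, and the shares called lower 5.12%, 1.14% and 3.9%. With starvation replicate 3 left out, 6 rose and 0 fell in TPN against sham, 2 rose and 3 fell in starvation against sham and 7 rose and 0 fell in TPN against starvation. The medians were then 0.67, 0.04 and 1.28, so that of starvation against sham turned its sign. On also leaving out sham replicate 2, 6 rose and 0 fell, 2 rose and 4 fell, and 10 rose and 0 fell. Il1b, which encodes interleukin-1β, had 14.7, 10.6 and 11.7 CPM in TPN, 1.20, 2.22 and 1.04 CPM in starvation and 1.77, 3.31 and 2.67 CPM in sham. It rose by 2.25 ± 0.36 in TPN against sham and by 3.05 ± 0.38 in TPN against starvation (edgeR adjusted p = 0.0084 and 0.0037), the first call being lost without TPN replicate 1 (2.11). The TPN libraries had both the highest Fkbp5 and Tsc22d3 and the highest Il1b of the 3 groups. Cxcl1 had 107 reads in TPN, 4 in starvation and 3 in sham, and Ccl2 134, 8 and 18. At an unadjusted p under 0.05, edgeR had 5 genes higher and 0 lower in TPN against sham and 1 and 3 in starvation against sham. In TPN against starvation it had 8 and 0. DESeq2 at its adjusted p called 5 and 0, 0 and 2, and 7 and 0 in the 3 comparisons. Il1b in TPN against starvation was called in all 9 fits that left out 1 library, and the other calls of this list were not. Without any 1 TPN library, the calls of Icam1 in TPN against sham (1.55 to 1.67), Mmp9 in TPN against starvation (1.16 to 1.32), Cxcl1 in both (4.86 to 4.96 and 4.42 to 4.52), Ccl2 in both (2.61 to 2.88 and 3.83 to 4.10) and Ptgs2 and Mmp9 in starvation against sham (-1.73 and -1.23 each) were lost. The same calls were also lost without some of the sham or starvation libraries. These were sham replicates 1 and 3 for Icam1 (1.58 and 1.52), Ptgs2 (-1.78 each), Mmp9 in starvation against sham (-1.23 and -1.11), Ccl2 in TPN against sham (3.03 and 2.46) and Cxcl1 in TPN against sham (4.40 and 4.82). They were also sham replicate 2 for Ccl2 in TPN against sham (2.83), sham replicate 3 for Cxcl1 in TPN against starvation (4.48), starvation replicate 1 for Mmp9 (-1.12) and Ptgs2 (-1.55) against sham and for Cxcl1 against starvation (3.82), and starvation replicate 2 for Ptgs2 (-1.73) and for Ccl2 in both TPN comparisons (2.75 and 3.65). Without starvation replicate 2, which holds all 4 starvation reads of Cxcl1, the fitted value of Cxcl1 in TPN against starvation was 8.12, which is no bound because starvation is then at 0 reads.

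Of 14 immediate early genes, which like Dusp1 respond within minutes to handling and growth factors, 0 rose and 2 fell in TPN against sham (Fosb and Jund), 0 rose and 1 fell in starvation against sham (Fosb) and 0 changed in TPN against starvation. Beside these stand 5.12%, 1.14% and 3.9% of all genes called lower in the 3 comparisons, and 3.48%, 2.55% and 1.94% called higher. At an unadjusted p under 0.05, edgeR had 0 higher and 3 lower in TPN against sham and 0 and 2 in starvation against sham. In TPN against starvation it had 1 and 1. DESeq2 at its adjusted p called 0 and 3, 0 and 1, and 0 and 1 in the 3 comparisons. Without starvation replicate 3, 3 genes fell in TPN against sham, 2 in starvation against sham and 0 in TPN against starvation, and 0 rose. With sham replicate 2 left out as well, 0 rose and 4 fell, 0 rose and 5 fell, and 2 rose and 1 fell. Fosb had 1.57, 1.19 and 1.76 CPM in TPN, 1.52, 1.48 and 6.25 CPM in starvation and 12.3, 62.4 and 24.7 CPM in sham. Its highest value was in sham replicate 2, as was that of Dusp1, and its TPN call was lost without any 1 TPN library (-4.56 to -4.30). Its starvation call was lost without any 1 library other than sham replicate 1 or starvation replicate 3 (-3.62 to -2.61), and the Jund call without any 1 library other than starvation replicates 1 or 3 (-1.11 to -0.80). Fos had 198, 151 and 133 CPM in TPN, 91.6, 173 and 542 CPM in starvation and 177, 337 and 208 CPM in sham, so its groups overlapped.

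Genes with the profile most like that of a graded member were found by the root mean square difference of centred log2 CPM over the 9 libraries, among 10280 genes. For Fkbp5 they were Angptl4 (0.565), Pdk4 (0.920) and Mt2 (0.951), and for Zbtb16 Angptl4 (0.698), Pdk4 (0.915) and Ndrg1 (1.01). For Tsc22d3 they were Tspan8 (0.130), Plscr1 (0.139) and Atg16l2 (0.164), and for Ddit4 Phyhd1 (0.176), Ivns1abp (0.220) and Miga1 (0.232). The nearest genes found need not be close. Mt2 had every starvation library above every TPN library, the reverse of Fkbp5, and Pdk4 overlapped between TPN and starvation. Fkbp5 differed from Angptl4 in size, with 4.74 against 3.50 in TPN against sham. They also differed between TPN and starvation, where Fkbp5 had separate levels and Angptl4 overlapped (0.68 ± 0.27, edgeR adjusted p = 0.17). Ivns1abp, which encodes a protein that binds actin, had 978, 957.5 and 853 CPM in TPN, 329.8, 319 and 278 CPM in starvation and 244, 185 and 215 CPM in sham, and like Ddit4 stood high in TPN with starvation nearer to sham.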

How the data were processed

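The data are 9 libraries of mouse jejunum, 3 per group, grouped and numbered by the labels. The authors deposited counts per gene symbol, which are whole numbers. Per the submitters' processing notes, the tools were STAR 2.7.2e, featureCounts 2.0.0, cutadapt 2.9, FastQC 0.11.8 and DESeq2 1.32.0, and the genome GRCm38/mm10. The sources used here give no annotation release, strand setting or treatment of multimapping reads. The table also has 9 columns that match no sample in the labels, and no step used them. No molecular identifiers are named, so counts of reads are not counts of independent molecules. Replicates of a group all differed by more than sampling noise (chi-square per gene 7.74 to 118).

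From the deposited counts, filterByExpr kept 14668 genes for testing and removed 7200. TMM scaled the libraries, and all 9 entered 1 quasi-likelihood fit, with 1 mean for each group, in edgeR 4.0.16 on R 4.3.3 (6 residual degrees of freedom). The adjusted p is Benjamini-Hochberg over all genes tested, with a threshold of 0.05. The SE is the size of the log2 fold change over the square root of its F value. The scripts were tested on simulated data. Gene positions and exon lengths are from GENCODE M21 (GRCm38), and promoter windows from RefSeq. Profiles were compared as log2(CPM + 0.5) for genes with a mean of at least 3 log2 CPM.

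The members and the gene lists were chosen with earlier results of these data known. Genes named beside the members are up to 4 per list and comparison with the smallest adjusted p, a fixed set, and the 3 nearest profiles of each graded member. The alternatives were DESeq2 1.42.0, other scaling factors, testing every gene with a read or those at 1 CPM or more in 3 or more libraries, separate fits per comparison, a block for the replicate number, and leaving out each library. Leaving out sham replicate 2 together with starvation replicate 3 was chosen after seeing the data.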

Additional observations from a re-analysis of the deposited data

How the results depend on the processing

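No called value changed its sign under the alternatives tried. Library totals in place of TMM factors moved the median log2 fold change of all genes by 0.187 in TPN against sham and by 0.143 in TPN against starvation, and the values of Nr3c1 moved with it. With each library left out in turn, the number of genes higher in TPN against sham ran from 83 to 1477 (510 with all libraries) and of genes lower in TPN against sham from 125 to 1705 (751). In the same way, genes higher in starvation against sham ran from 22 to 945 (374), genes lower in starvation against sham from 10 to 794 (167), genes higher in TPN against starvation from 43 to 482 (285) and genes lower in TPN against starvation from 81 to 826 (572). The other induced genes higher and lower ran from 8 to 17 and 0 to 1, from 3 to 12 and 0 to 1, and from 1 to 7 and 0 to 1 in the 3 comparisons in this order, and the receptor complex genes higher in TPN against starvation from 1 to 8. DESeq2 called 969 higher and 1340 lower, 924 and 601, and 658 and 1043, with 1, 1 and 3 of the other induced genes lower and 7 higher in TPN against starvation. Library totals gave 97 genes lower in starvation against sham and 6 other induced genes higher in TPN against starvation. Fits of only the groups compared gave 1130 and 1644 in TPN against sham, 2 and 0 in starvation against sham and 295 lower in TPN against starvation, with 17, 1 and 5 other induced genes higher. With sham replicate 2 and starvation replicate 3 both left out, 2232 and 2193, 1612 and 1337, and 1500 and 1705 genes were higher and lower, with 21 other induced genes higher in TPN against sham and 13 in TPN against starvation, and 1, 2 and 2 lower. The cause of these differences was not tested. Deviations from group means correlated at -0.30 to 0.37 for same-numbered libraries and at -0.59 to 0.48 for libraries of different number. With 3 libraries per group this cannot tell whether the numbers pair the samples. With the replicate number as a block, 5, 3 and 2 of the 10 genes were called in the 3 comparisons (6, 4 and 4 without it), and over all genes 203 higher and 353 lower were called in TPN against sham, 48 and 23 in starvation against sham and 133 and 253 in TPN against starvation, with 5 other induced genes higher in starvation against sham and 4 receptor complex genes higher in TPN against starvation. With 3 libraries per group, an absent call at a low fold or a low count carries little weight.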

Other observations

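Genes of receptor coregulators, the proteins that the DNA-bound receptor recruits to switch genes on or off, gave no calls by edgeR. Of 13 tested, edgeR called 0 higher and 0 lower in each comparison, with medians of 0.18 in TPN against sham, 0.20 in starvation against sham and 0.05 in TPN against starvation. The shares over all genes were 3.48%, 2.55% and 1.94% higher and 5.12%, 1.14% and 3.9% lower. At an unadjusted p under 0.05 there was 1 higher in TPN against sham, 0 in starvation against sham, and 1 higher and 1 lower in TPN against starvation, and DESeq2 called 1 lower in TPN against starvation and 0 elsewhere. Ppargc1a, a coactivator of energy metabolism chosen after its values were seen, had 57.9, 44.9 and 47.2 CPM in TPN, 67.7, 80.7 and 85.7 CPM in starvation and 65.7, 51.7 and 74.4 CPM in sham. Every TPN library lay below every starvation library, and the value of -0.64 ± 0.17 in TPN against starvation did not pass (edgeR adjusted p = 0.063). Without starvation replicate 3 edgeR called 0 of the list in each comparison, and with sham replicate 2 left out as well it called 1 lower in TPN against sham, 0 in starvation against sham and 1 higher and 1 lower in TPN against starvation.

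Errfi1 and Dusp1 act on growth factor and MAP kinase signals, so the EGF receptor family, its ligands and the other MAP kinase phosphatases were counted as well. Of 19 tested genes 2 rose and 1 fell in TPN against sham, 1 rose and 0 fell in starvation against sham and 1 rose and 0 fell in TPN against starvation. Among all genes, 3.48%, 2.55% and 1.94% were called higher and 5.12%, 1.14% and 3.9% lower in these comparisons. At an unadjusted p under 0.05, edgeR had 3 higher and 5 lower in TPN against sham, 1 and 4 in starvation against sham and 2 and 1 in TPN against starvation, and DESeq2 called 3 and 3, 1 and 3, and 1 and 1. In TPN against sham 3 rose and 6 fell without starvation replicate 3 and in the fit of only TPN and sham. Without starvation replicate 3, 1 rose and 5 fell in starvation against sham and 3 rose and 0 fell in TPN against starvation. With sham replicate 2 left out as well, 5 rose and 7 fell, 1 rose and 6 fell, and 5 rose and 1 fell. Ereg, which encodes the EGF receptor ligand epiregulin, had 22.9, 25.5 and 23.3 CPM in TPN, 4.79, 6.02 and 3.93 CPM in starvation and 10.99, 7.26 and 12.08 CPM in sham. Like Errfi1 it stood highest in TPN, and it rose by 1.24 ± 0.24 against sham and by 2.28 ± 0.25 against starvation (edgeR adjusted p = 0.017 and 0.002); the first call was lost without any 1 TPN library (1.19 to 1.27). Dusp2, a nuclear MAP kinase phosphatase, had 7.25, 9.89 and 10.7 CPM in TPN, 21.9, 13.5 and 5.90 CPM in starvation and 2.94, 2.99 and 1.08 CPM in sham. It rose in TPN against sham (2.00 ± 0.52, edgeR adjusted p = 0.045) and in starvation against sham (2.57 ± 0.52, adjusted p = 0.034). The TPN call was lost without any 1 sham or TPN library or starvation replicate 2 (1.64 to 2.22), and the starvation call without any 1 library other than starvation replicate 3 (2.07 to 2.79). Dusp5, a phosphatase of the MAP kinase ERK, had 24.1, 22.6 and 31.0 CPM in TPN, 40.5, 43.9 and 76.4 CPM in starvation and 48.8, 95.0 and 63.4 CPM in sham. It fell in TPN against sham (-1.41 ± 0.30, adjusted p = 0.025), a call lost without any 1 TPN library, sham replicate 2 or sham replicate 3 (-1.56 to -1.11).

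Srd5a2, an enzyme that reduces steroids, had 4.29, 5.36 and 2.96 CPM in TPN, 3.19, 6.65 and 14.9 CPM in starvation and 1.77, 0.747 and 0.666 CPM in sham. It rose in starvation against sham by 2.95 ± 0.63 (edgeR adjusted p = 0.039), a call lost without any 1 sham or TPN library or starvation replicate 2 (2.69 to 3.52).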
